A study of Mus musculus with 36 samples.

Results

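Alternative splicing is steered by SR proteins, which carry a domain rich in arginine and serine, and by heterogeneous nuclear ribonucleoproteins (hnRNPs), which coat nascent transcripts and often silence exons. The genes described here are 33 genes of these families and their partners, read by 105 of the 45037 probe sets tested, in whole brain and in liver of mice kept awake for 6 h. A probe set was taken where the platform annotation gave it 1 gene symbol that began with Srsf or Hnrnp (or the older Sfrs or Hnrp), or that was Sfpq, Nono, Pspc1 or Acin1. Of the 33 genes, 24 had several probe sets, with at most 7 (Hnrnpab, Hnrnpdl and Srsf1), and 9 had 1. A further 7 probe sets that carried such a symbol beside another were left out. Where genes are counted, each gene is represented by its brightest probe set in that tissue, out of 18193 genes represented in the same way.

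Male mice aged 12 to 13 weeks belonged to the inbred strains AKR/J, C57BL/6J and DBA/2J. Within a strain and tissue, a sleep-deprived group was kept awake from light onset until Zeitgeber time (ZT) 6, and a control group stayed in its home cage and was killed at the same hour. Each of the 12 groups had 3 arrays, and each array carried RNA pooled from 3 mice, so that the spread between arrays is a spread between pools. The labels name no altered allele and no agent for any group. Values are RMA log2 signals, and changes are sleep-deprived minus control on that scale, averaged over strains (9 arrays against 9) unless a strain is named, with limma's standard error after ±. "Rose" and "fell" are used for an adjusted p under 0.05 in limma (Benjamini-Hochberg over the 45037 probe sets). In whole tissue, fewer cells of a type and less RNA per cell cannot be told apart.

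SR proteins bind exonic enhancers through RNA recognition motifs, recruit the spliceosome through their arginine-serine domain, and are switched by phosphorylation. Proteins of the hnRNP families bind short motifs, such as uridine tracts (hnRNP C), guanine runs (F and H), cytosine runs (K) or AU-rich elements (D and A0), and act in splicing, export, stability and translation. Many genes of both families carry highly conserved exons whose inclusion sends the transcript to nonsense-mediated decay, and so probe sets of the same gene can read different transcripts.

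The arrays fitted their labelled tissues, with 10 neuron markers at a median percentile of 99.0 among brain probe sets and 8 hepatocyte markers at 99.9 in liver. Not all arrays were alike. A narrow spread of values (SD 1.90 to 1.96) marked 3 sleep-deprived brain arrays (C57BL/6J array 1, AKR/J array 3, DBA/2J array 2). These 3 had the lowest means over the 33 genes among the sleep-deprived brain arrays, at 8.67, 8.84 and 8.71 against 8.92 to 9.02 on the other 6. Brain controls came close: C57BL/6J control 2 had an SD of 1.97 and a mean of 8.849, and AKR/J control 2 had 1.98 and 8.765. Leaving out the 3 narrow arrays thus removes only sleep-deprived arrays of low mean over the 33 genes. The actin 3′ minus 5′ signal, which bears on RNA quality, was raised on brain C57BL/6J control 2 (1.13) and DBA/2J control 3 (0.98) and on liver DBA/2J control 1 (2.16). Labels of 4 AKR/J controls, arrays 2 and 3 of each tissue, disagree, with ZT 6 in the title and ZT 0 in the source name, and they were kept as ZT 6 controls. The 5 brain arrays and 1 liver array of narrow spread or raised actin difference are called the doubted arrays.

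Averaged over strains, 4 of the 33 genes rose in brain (12.1%), against 0.951% of all genes, and 2 fell (6.06%), against 1.60%. In liver 8 rose (24.2%), against 2.97% of all genes, and 4 fell (12.1%), against 1.91%. The 33 genes were chosen with earlier results of these data known, so these shares are descriptions and not a test. The genes that rose in brain were Hnrnpc, Srsf6, Hnrnpm and Acin1, and those that fell were Hnrnpdl and Hnrnpa0. In liver, Hnrnpc, Hnrnpm, Acin1, Sfpq, Hnrnph3, Hnrnpul2, Hnrnph1 and Srsf4 rose, and Hnrnpd, Pspc1, Hnrnpk and Hnrnpdl fell. The genes moved in both directions: their median change was 0.01 in brain and 0.02 in liver, while the median of all genes was -0.01 and -0.02. The median size of the change, whatever its sign, was 0.13 in brain and 0.18 in liver, against 0.06 and 0.07 over all genes. By probe set, 8 of the 105 rose in brain (0.688% of all probe sets) and 7 fell (1.04%), and in liver 16 rose (2.40%) and 9 fell (1.21%). With a filter on dim probe sets (log2 over 6 on at least 3 arrays), the shares of all genes were larger. In brain 5 of the genes described here then rose and 4 fell, against 2.58% and 4.95% of the 9354 genes left. In liver 8 rose and 4 fell, against 8.49% and 5.09% of 7601. Among these falls Srsf2 stood in place of Pspc1, which was too dim in liver for the filter. The part of signal level in the differences from all genes was not tested.

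The brain count changed with the arrays that were used. Without the 3 narrow arrays and the 2 brain arrays of raised 3′ minus 5′ actin, 9 genes rose, among them the same 4, while the share of all genes that rose went from 0.951% to 3.69%. The further 5 were Hnrnph1 (0.30 ± 0.05, adjusted p = 0.0053), Hnrnpa2b1 (0.25 ± 0.05, 0.0120), Srsf3 (0.24 ± 0.05, 0.0168), Hnrnph3 (0.23 ± 0.05, 0.0203) and Srsf10 (0.35 ± 0.09, 0.0495). Under the same omission 3 genes fell (1.84% of all genes), the third being Srsf5, at -0.27 ± 0.05 (0.0114). In liver, without its doubted array, Srsf5 was likewise a further gene that fell, by 0.33 ± 0.06 (0.0059). With AKR/J left out, Hnrnpc alone rose and Hnrnpdl alone fell in brain, while the shares of all genes dropped as well. They went from 0.951% to 0.176% for rises and from 1.60% to 0.0989% for falls. Without the AKR/J controls of disagreeing labels, Hnrnpc and Srsf6 rose (0.324% of all genes) and Hnrnpdl fell (0.621%) in brain. In liver 6 genes rose (1.99% of all genes) and 4 fell (0.929%), the calls of Acin1 (limma, adjusted p = 0.1424) and Srsf4 (0.0772) being lost. Leaving out any of 13 single arrays took the brain rises from 4 to 2. In liver, leaving out any single array gave 7 or 8 rises and 4 or 5 falls. Quantile normalisation gave 7 rises (2.46% of all genes) and 6 falls (2.54%) there.

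**Figure D1:**
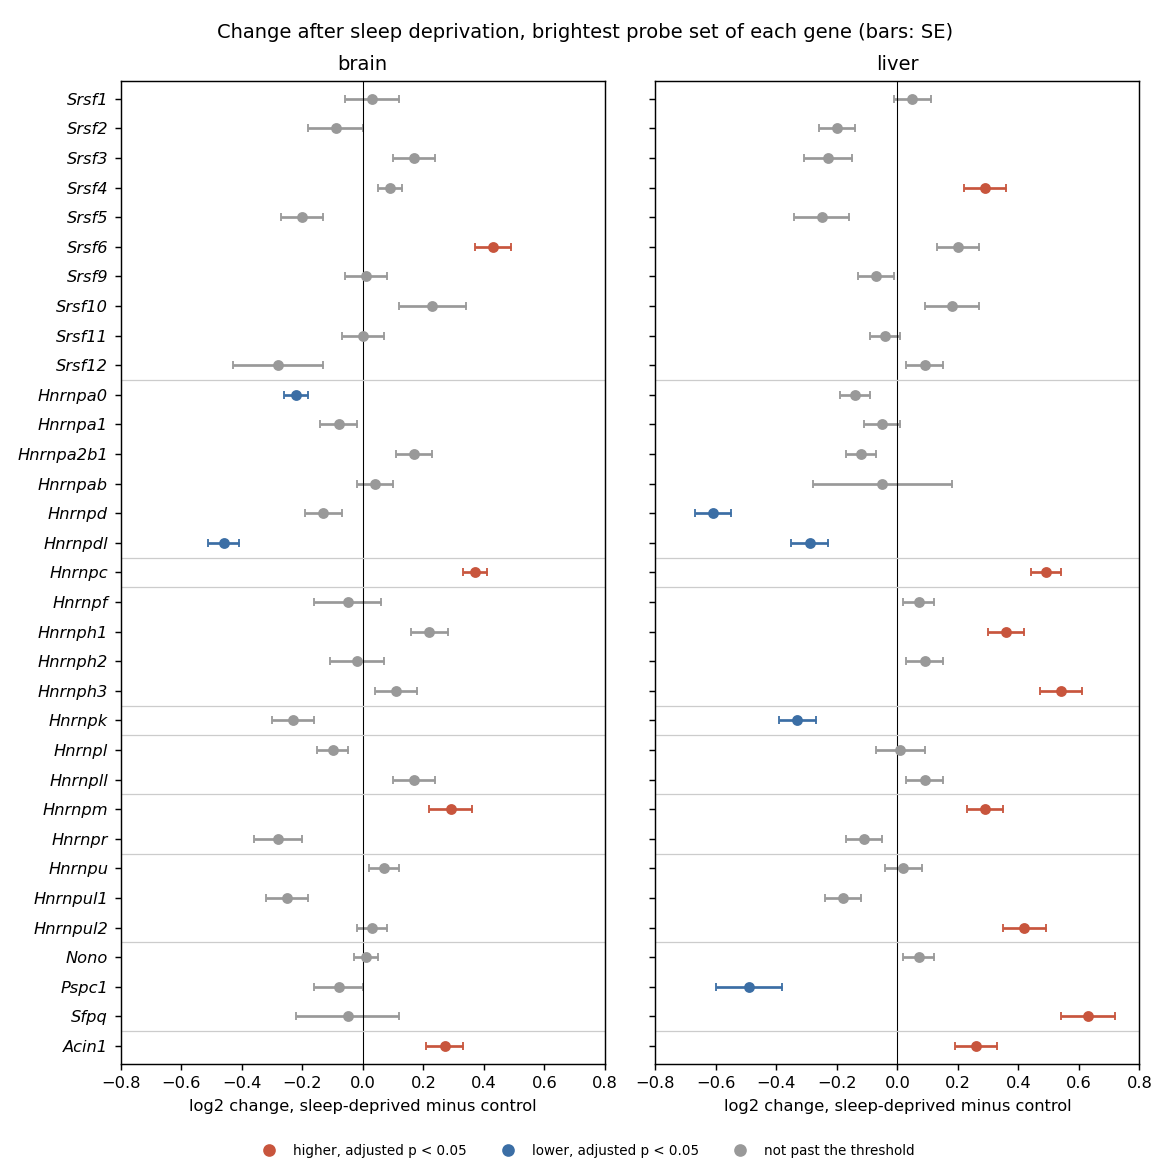
Log2 change after sleep deprivation (x axis, sleep-deprived minus control, averaged over 3 strains) of the brightest probe set of each of the 33 genes (y axis), in brain at left and liver at right. Points are limma estimates from 9 against 9 arrays, bars are standard errors, grey lines part the families, and colour marks an adjusted p under 0.05: 4 genes rose and 2 fell in brain, and 8 rose and 4 fell in liver.

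Of the 10 SR protein genes, 1 rose in brain (Srsf6) and 1 in liver (Srsf4), and none fell in either tissue by its brightest probe set. Srsf6, an SR protein with a pair of RNA recognition motifs, on its brightest probe set (1448454_at) read 8.84, 8.71 and 8.85 on the brain control arrays of C57BL/6J, 8.76, 8.70 and 8.87 on those of AKR/J and 8.70, 8.78 and 8.69 on those of DBA/2J. Srsf6 in sleep-deprived brain read 8.93, 9.26 and 9.31, then 9.16, 9.08 and 9.39, then 9.23, 9.09 and 9.29 in the same order of strains. Every sleep-deprived array was above every control array. The change was 0.43 ± 0.06, a 1.35-fold rise with an adjusted p of 0.0014, and it was 0.37 for C57BL/6J, 0.43 for AKR/J and 0.48 for DBA/2J.

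Another probe set of Srsf6 went the other way. Srsf6 on 1416721_s_at read 8.66, 8.62 and 8.60 on the brain control arrays of C57BL/6J, 8.85, 8.73 and 8.66 on those of AKR/J and 8.73, 8.76 and 8.58 on those of DBA/2J. For Srsf6 the sleep-deprived arrays gave 8.37, 8.40 and 8.50 in C57BL/6J, 8.34, 8.41 and 8.36 in AKR/J, 8.51, 8.39 and 8.64 in DBA/2J. The groups did not overlap in C57BL/6J or AKR/J, while in DBA/2J they did. This probe set fell by 0.25 ± 0.05 (adjusted p = 0.0120), and the remaining probe sets, 1416720_at and 1447898_s_at, were at -0.23 ± 0.06 (0.0602) and -0.35 ± 0.09 (0.0557), short of the threshold; without the doubted arrays the last was at -0.23 ± 0.06 (0.0547). Srsf6 was the 1 gene of the 33 with probe sets called in opposite directions in brain, and there was none in liver. The mean of its 4 probe sets was at -0.10 in brain (adjusted p = 0.3590). With AKR/J left out, the rise on 1448454_at was as large (0.43 ± 0.08) with an adjusted p of 0.0552. In liver 1448454_at was at 0.20 ± 0.07 (adjusted p = 0.1186), and the other 3 lay between -0.08 and -0.03.

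Srsf4, a longer SR protein, rose in liver. Srsf4 read 7.54, 7.71 and 7.58 on the liver control arrays of C57BL/6J, 7.89, 7.94 and 7.76 on those of AKR/J and 8.02, 7.68 and 7.61 on those of DBA/2J. With sleep deprivation, Srsf4 was at 7.83, 7.97 and 8.12, at 8.12, 8.19 and 7.90 and at 8.19, 8.00 and 8.03 in these strains. In C57BL/6J the groups were apart, and in the other strains they overlapped. The change was 0.29 ± 0.07 (1.22-fold, adjusted p = 0.0159), and in brain it was 0.09 ± 0.04 (0.4479). The liver call was lost over C57BL/6J and DBA/2J alone (0.33 ± 0.08, 0.0604) and without the AKR/J controls of disagreeing labels (0.28, 0.0772).

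Srsf10, which represses splicing when it is dephosphorylated, as after heat shock, rose in liver on 2 of its 4 probe sets but not on the brightest. Srsf10 on 1449121_at read 5.35, 5.28 and 5.20 on the liver control arrays of C57BL/6J, 5.34, 5.23 and 5.19 on those of AKR/J and 5.41, 5.42 and 5.43 on those of DBA/2J. After sleep deprivation Srsf10 read 5.68, 5.72 and 5.72 for C57BL/6J, 5.45, 5.62 and 5.50 for AKR/J, and 5.34, 5.46 and 5.68 for DBA/2J. This probe set rose by 0.26 ± 0.05 (adjusted p = 0.0069), and the groups were apart in C57BL/6J and AKR/J. Srsf10 on 1418526_at read 4.66, 4.41 and 4.15 on the liver control arrays of C57BL/6J, 4.80, 4.79 and 4.76 on those of AKR/J and 4.19, 4.68 and 4.62 on those of DBA/2J. Srsf10 in sleep-deprived liver read 4.89, 4.62 and 4.68, then 4.73, 5.03 and 5.16, then 4.87, 5.24 and 5.37 in the same order of strains. It rose by 0.39 ± 0.09 (adjusted p = 0.0169), with the groups apart only in DBA/2J. The brightest, 1418527_a_at, was at 0.18 ± 0.09 (0.3611), or 0.11 ± 0.08 without the doubted array, and 1423982_at at -0.01 ± 0.09. In brain the 4 probe sets were at 0.23 to 0.53 and none passed; the nearest was 1418526_at, at 0.44 ± 0.11 (adjusted p = 0.0520). Without the doubted arrays all 4 passed in brain: 1418527_a_at at 0.44 ± 0.05 (2.940e-04), 1449121_at at 0.50 ± 0.06 (7.603e-04), 1418526_at at 0.50 ± 0.11 (0.0202) and 1423982_at at 0.35 ± 0.09 (0.0495).

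With all arrays and none of the alternative settings, the other SR protein genes did not pass in either tissue on any probe set. Srsf12, an SR-like protein related to Srsf10, had the lowest estimate in brain among the brightest probe sets of the SR genes. Srsf12 read 5.49, 5.27 and 5.19 on the brain control arrays of C57BL/6J, 5.39, 4.81 and 5.23 on those of AKR/J and 5.22, 5.05 and 5.49 on those of DBA/2J. For Srsf12 the sleep-deprived arrays gave 4.73, 5.16 and 5.46 in C57BL/6J, 5.23, 4.97 and 4.47 in AKR/J, 5.25, 4.20 and 5.11 in DBA/2J. The groups overlapped in every strain, and the change was -0.28 ± 0.15 (adjusted p = 0.4860); without the doubted arrays it was -0.01 ± 0.10 (0.9815). Srsf5, first described as an insulin-induced gene of regenerating liver, was at -0.20 ± 0.07 in brain (0.2181) and -0.25 ± 0.09 in liver (0.1444). Srsf3, a short SR protein that also acts in RNA export, was at 0.17 ± 0.07 in brain (0.2775) and -0.23 ± 0.08 in liver (0.1600). Srsf2, which marks nuclear speckles, was at -0.09 ± 0.09 in brain (0.8079) and -0.20 ± 0.06 in liver (0.0906). Srsf1, the founding member of the family, Srsf9, a short relative of Srsf1, and Srsf11 were at 0.03, 0.01 and 0.00 in brain and at 0.05, -0.07 and -0.04 in liver.

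Within the hnRNP A/B/D families, none of the 6 genes rose by its brightest probe set, 2 fell in brain (Hnrnpdl and Hnrnpa0) and 2 in liver (Hnrnpd and Hnrnpdl). Hnrnpdl and Hnrnpd encode closely related proteins that bind AU-rich elements, and Hnrnpd is also known as AUF1, a factor of mRNA decay. The 250 bases upstream of their RefSeq starts (GRCm38.p6) are shown because the genes lie close together on chromosome 5, with starts 60284 bp apart, and both fell in liver. Both lie on the minus strand, at chr5:100039223-100039472 for Hnrnpdl and chr5:99978939-99979188 for Hnrnpd. For comparison, the same window is given for Hnrnpc (chr14:52104022-52104271, minus strand) and Sfpq (chr4:127021051-127021300, plus strand), which rose. Capitals mark every match, on either strand, to the core of a heat shock element (GAANNTTC), a cAMP response element (TGACGTCA), an E-box (CACGTG), the CCAAT box (its first 5 letters) and the GC box (GGGCGG), and neighbouring or overlapping matches run together.
Hnrnpdl: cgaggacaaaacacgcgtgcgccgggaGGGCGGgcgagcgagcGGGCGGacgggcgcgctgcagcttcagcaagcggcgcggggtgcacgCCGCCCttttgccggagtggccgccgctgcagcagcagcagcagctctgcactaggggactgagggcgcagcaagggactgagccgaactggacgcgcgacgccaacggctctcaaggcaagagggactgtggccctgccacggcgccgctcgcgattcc
Hnrnpd: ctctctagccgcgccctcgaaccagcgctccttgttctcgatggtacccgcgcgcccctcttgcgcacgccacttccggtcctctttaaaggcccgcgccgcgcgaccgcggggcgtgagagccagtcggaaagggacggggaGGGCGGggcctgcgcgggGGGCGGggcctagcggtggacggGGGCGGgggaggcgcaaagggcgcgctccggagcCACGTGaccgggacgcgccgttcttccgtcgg
Hnrnpc: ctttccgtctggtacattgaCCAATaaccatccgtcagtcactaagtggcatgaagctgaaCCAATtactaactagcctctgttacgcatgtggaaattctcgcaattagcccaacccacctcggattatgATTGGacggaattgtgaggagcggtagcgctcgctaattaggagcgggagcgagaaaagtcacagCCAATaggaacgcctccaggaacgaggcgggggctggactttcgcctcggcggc
Sfpq: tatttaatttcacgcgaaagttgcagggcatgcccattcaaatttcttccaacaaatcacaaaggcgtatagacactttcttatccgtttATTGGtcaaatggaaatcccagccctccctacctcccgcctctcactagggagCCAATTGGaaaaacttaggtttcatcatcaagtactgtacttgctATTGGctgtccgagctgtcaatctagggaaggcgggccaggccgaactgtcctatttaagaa
The windows of Hnrnpdl and Hnrnpd each held 3 GC boxes and no CCAAT box, and that of Hnrnpd held 1 E-box. Those of Hnrnpc and Sfpq each held 4 CCAAT boxes, of which 2 overlap in Sfpq, and no GC box. No match to the heat shock element core or the cAMP response element was found in these 4 windows. The split between GC and CCAAT boxes did not hold over the other called genes. Srsf6, Srsf4 and Hnrnph3, which rose, had GC boxes and no CCAAT box, and Hnrnpk, which fell, had CCAAT boxes and no GC box. Hnrnpm and Acin1, which rose, had neither, while Hnrnph1, which rose, and Hnrnpa0 and Pspc1, which fell, had both.

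The RefSeq table held 46 promoters for 31 of the 33 genes, all but Hnrnpul2 and Hnrnpll. A GC box was found in 32 of the 46, against 32.7% of all 32851 promoters of the same length, and a CCAAT box in 22, against 33.8%. The heat shock element core was in 4 (of Hnrnpa2b1, Hnrnpf, Hnrnpl and Srsf9), against 6.69%, the E-box in 2, against 6.02%, and the cAMP response element in none, against 1.55%. The median GC content was 62.6% over the 46 promoters and 52.4% over all. Promoters of a gene with several starts can overlap, and these shares are descriptions of sequence and not of binding.

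Hnrnpdl fell in both tissues. Hnrnpdl on its brightest probe set, 1424251_a_at, read 11.14, 11.13 and 11.03 on the brain control arrays of C57BL/6J, 11.36, 11.30 and 11.32 on those of AKR/J and 11.29, 11.21 and 11.25 on those of DBA/2J. With sleep deprivation, Hnrnpdl was at 10.61, 10.74 and 10.78, at 10.67, 10.71 and 10.95 and at 10.91, 10.65 and 10.87 in these strains. The highest sleep-deprived array (10.95) was below the lowest control (11.03). The signal fell by 27.3%, or 0.46 ± 0.05 on the log2 scale (adjusted p = 1.426e-04), with -0.39 for C57BL/6J, -0.55 for AKR/J and -0.44 for DBA/2J.

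The 7 probe sets of Hnrnpdl differed in size of change. In brain 5 fell: 1420093_s_at by 0.57 ± 0.06 (adjusted p = 6.659e-05), 1449039_a_at by 0.52 ± 0.07 (4.818e-04), 1456698_s_at by 0.76 ± 0.12 (0.0021) and 1428224_at by 1.13 ± 0.20 (0.0069), besides the brightest. Hnrnpdl on 1428224_at read 6.28, 5.61 and 6.07 on the brain control arrays of C57BL/6J, 6.40, 5.91 and 5.89 on those of AKR/J and 6.04, 5.96 and 6.04 on those of DBA/2J. After sleep deprivation Hnrnpdl read 3.91, 5.34 and 5.62 for C57BL/6J, 5.02, 4.97 and 4.58 for AKR/J, and 5.29, 4.19 and 5.14 for DBA/2J. The 3 lowest of these were the 3 arrays of narrow spread, and without the doubted arrays the change was -0.85 ± 0.09 (1.828e-04). In AKR/J and DBA/2J the groups were apart, and in C57BL/6J they overlapped. In contrast, 1424252_at and 1428225_s_at were at -0.07 ± 0.07 and 0.05 ± 0.08.

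Hnrnpdl on 1424251_a_at read 9.09, 8.82 and 8.92 on the liver control arrays of C57BL/6J, 9.23, 9.30 and 8.99 on those of AKR/J and 9.01, 9.00 and 8.80 on those of DBA/2J. Hnrnpdl in sleep-deprived liver read 8.64, 8.62 and 8.66, then 8.66, 9.01 and 8.79, then 8.74, 8.70 and 8.71 in the same order of strains. The groups were apart in C57BL/6J and DBA/2J and overlapped in AKR/J. The signal fell by 18.4%, a change of -0.29 ± 0.06 (adjusted p = 0.0085), and over the other strains without AKR/J it was -0.26 ± 0.06 (0.0569). The probe sets that fell in liver beside it were 1420093_s_at (-0.49 ± 0.08, adjusted p = 6.318e-04), 1449039_a_at (-0.25 ± 0.05, 0.0066) and 1456698_s_at (-0.40 ± 0.10, 0.0343, and 0.0553 without the doubted array). The others were at -0.32 ± 0.11 (1428224_at, limma, adjusted p = 0.1574), -0.01 ± 0.09 (1424252_at) and 0.06 ± 0.06 (1428225_s_at) in liver. Of these 1428224_at had a low mean liver signal, 3.18. On 1420093_s_at no sleep-deprived array reached a control array in either tissue.

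**Figure D2:**
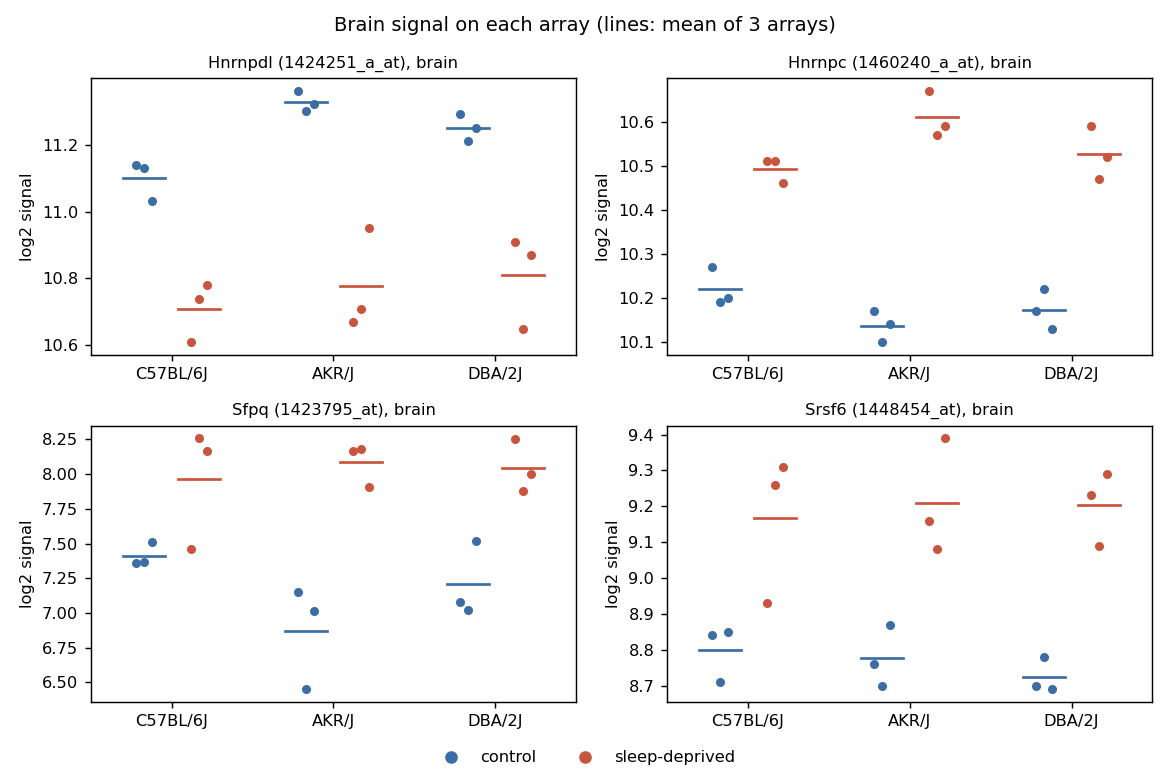
Log2 signal in brain (y axis) on each array, by strain (x axis), for Hnrnpdl, Hnrnpc, Sfpq on probe set 1423795_at and Srsf6 on probe set 1448454_at. Points are arrays, each a pool of 3 mice, lines are the means of 3 arrays, and the y axes differ and do not start at 0; in the panels of Hnrnpdl, Hnrnpc and Srsf6 no sleep-deprived array overlaps any control.

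Hnrnpd fell in liver. Hnrnpd read 7.90, 7.83 and 7.90 on the liver control arrays of C57BL/6J, 8.05, 8.18 and 7.92 on those of AKR/J and 8.26, 8.36 and 8.12 on those of DBA/2J. For Hnrnpd the sleep-deprived arrays gave 7.12, 7.54 and 7.46 in C57BL/6J, 7.45, 7.55 and 7.67 in AKR/J, 7.38, 7.36 and 7.48 in DBA/2J. The highest sleep-deprived array (7.67) was below the lowest control (7.83). The signal fell by 34.6%, a change of -0.61 ± 0.06 with an adjusted p of 8.136e-06, the lowest of the 33 genes in liver, and it passed in each strain alone (-0.51 in C57BL/6J, adjusted p = 0.0312; -0.49 in AKR/J, 0.0356; -0.84 in DBA/2J, 5.536e-04). Its other probe sets, 1457568_at and 1458273_at, were at -0.08 ± 0.08 and -0.06 ± 0.05 in liver. Their mean liver signals were 4.5 and 2.62, against 7.75 on the brightest and a lowest value of 2.12 in the data. The part of the lower signal in their smaller estimates was not tested. In brain the 3 probe sets lay at -0.13 ± 0.06, -0.27 ± 0.10 and -0.28 ± 0.11, with adjusted p of 0.3750, 0.2394 and 0.2977; without the doubted arrays they were at -0.08 ± 0.06, -0.09 ± 0.07 and -0.06 ± 0.08.

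Hnrnpa0, an AU-rich element binding protein, fell in brain. Hnrnpa0 read 9.58, 9.50 and 9.57 on the brain control arrays of C57BL/6J, 9.61, 9.58 and 9.58 on those of AKR/J and 9.58, 9.56 and 9.51 on those of DBA/2J. With sleep deprivation, Hnrnpa0 was at 9.30, 9.44 and 9.42, at 9.38, 9.36 and 9.23 and at 9.41, 9.24 and 9.32 in these strains. The highest sleep-deprived array (9.44) was below the lowest control (9.50). The signal fell by 14.1%, a change of -0.22 ± 0.04 (adjusted p = 0.0143), and in liver the change was -0.14 ± 0.05 (0.1934). Over C57BL/6J and DBA/2J alone the brain change was -0.20 ± 0.06 (0.3148).

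Hnrnpa2b1, which also carries RNAs into dendrites and oligodendrocyte processes, rose in liver on 1 of its 4 probe sets. Hnrnpa2b1 on 1420365_a_at read 9.83, 9.98 and 9.99 on the liver control arrays of C57BL/6J, 9.59, 9.95 and 9.76 on those of AKR/J and 9.82, 9.90 and 9.81 on those of DBA/2J. After sleep deprivation Hnrnpa2b1 read 9.99, 10.18 and 10.18 for C57BL/6J, 10.05, 9.99 and 10.02 for AKR/J, and 9.95, 10.11 and 9.98 for DBA/2J. It rose by 0.20 ± 0.05 (adjusted p = 0.0425), with the groups apart in AKR/J and DBA/2J, and leaving out any of 15 single arrays ended the call. The brightest liver probe set, 1433829_a_at, was at -0.12 ± 0.05 (0.2251), of the opposite sign. Hnrnpa1, a general exon silencer, and Hnrnpab did not pass in either tissue, at -0.08 ± 0.06 and 0.04 ± 0.06 in brain and -0.05 ± 0.06 and -0.05 ± 0.23 in liver. The wide error of Hnrnpab in liver came with 3 arrays at 9.12, 10.02 and 10.04 (DBA/2J control 1, C57BL/6J sleep-deprived 3 and AKR/J sleep-deprived 1), while the other 15 lay between 10.56 and 11.31. The lowest of the 3 was the liver array of raised 3′ minus 5′ actin.

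Hnrnpc, whose protein forms tetramers that bind uridine tracts of nascent transcripts, rose in both tissues. Hnrnpc read 10.27, 10.19 and 10.20 on the brain control arrays of C57BL/6J, 10.17, 10.10 and 10.14 on those of AKR/J and 10.17, 10.22 and 10.13 on those of DBA/2J. Hnrnpc in sleep-deprived brain read 10.51, 10.51 and 10.46, then 10.67, 10.57 and 10.59, then 10.59, 10.47 and 10.52 in the same order of strains. The lowest sleep-deprived array (10.46) was above the highest control (10.27). The rise was 0.37 ± 0.04 (1.29-fold, adjusted p = 6.992e-05), the lowest adjusted p among the 33 genes in brain, with 0.27 for C57BL/6J, 0.48 for AKR/J and 0.36 for DBA/2J. With AKR/J left out it was 0.31 ± 0.05 (0.0428), and the mean of its probe sets was at 0.16, short of the threshold (0.0560). Hnrnpc read 10.06, 9.93 and 9.87 on the liver control arrays of C57BL/6J, 9.52, 9.50 and 9.55 on those of AKR/J and 9.94, 9.74 and 9.73 on those of DBA/2J. For Hnrnpc the sleep-deprived arrays gave 10.16, 10.29 and 10.00 in C57BL/6J, 10.17, 10.41 and 10.24 in AKR/J, 10.28, 10.37 and 10.27 in DBA/2J. Here the groups were apart in AKR/J and DBA/2J and overlapped in C57BL/6J.

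The liver rise of Hnrnpc was 0.49 ± 0.05 (1.40-fold, adjusted p = 2.479e-05), and by strain it was 0.20 in C57BL/6J (adjusted p = 0.6211), 0.75 in AKR/J (2.568e-04) and 0.51 in DBA/2J (0.0163). The strain by sleep deprivation interaction did not pass (adjusted p = 0.4522), and the AKR/J controls started lower, at 9.52 ± 0.02 (SD, n = 3), against 9.95 ± 0.10 in C57BL/6J and 9.80 ± 0.12 in DBA/2J. Another probe set, 1418693_at, rose in liver by 0.32 ± 0.05 (0.0011) and was at 0.08 ± 0.12 in brain (0.8671). The third, 1458139_at, was at 0.04 in brain and -0.02 in liver, with low mean signals of 3.22 and 2.74.

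The 4 genes of the hnRNP F/H family, whose proteins bind runs of guanine, all had a positive change in liver, and 2 of them rose there. Hnrnph3 read 5.82, 5.98 and 5.70 on the liver control arrays of C57BL/6J, 5.98, 5.90 and 5.50 on those of AKR/J and 6.16, 6.07 and 6.00 on those of DBA/2J. With sleep deprivation, Hnrnph3 was at 6.20, 6.35 and 6.57, at 6.24, 6.25 and 6.42 and at 6.70, 6.63 and 6.55 in these strains. Every sleep-deprived array (at least 6.20) was above every control (at most 6.16). Hnrnph3 rose by 0.54 ± 0.07 (1.45-fold, adjusted p = 1.365e-04), with 0.54 for C57BL/6J, 0.51 for AKR/J and 0.55 for DBA/2J. Hnrnph1 read 8.26, 8.17 and 8.37 on the liver control arrays of C57BL/6J, 8.25, 8.23 and 8.04 on those of AKR/J and 8.15, 8.36 and 8.31 on those of DBA/2J. After sleep deprivation Hnrnph1 read 8.40, 8.57 and 8.68 for C57BL/6J, 8.52, 8.66 and 8.77 for AKR/J, and 8.60, 8.57 and 8.59 for DBA/2J. The groups did not overlap. Hnrnph1 rose by 0.36 ± 0.06 (1.28-fold, limma, adjusted p = 8.628e-04). Its other probe set, 1437267_x_at, rose by 0.17 ± 0.05 (0.0477), a call that leaving out any of 16 single arrays ended. That probe set had a low mean liver signal, 3.06, where the lowest value in the data was 2.12. Hnrnpf and Hnrnph2 were at 0.07 ± 0.05 (0.5743) and 0.09 ± 0.06 (0.4444). In brain no gene of the family passed: Hnrnph1 was at 0.22 ± 0.06 (0.0660), Hnrnph3 at 0.11 ± 0.07 (0.5991), Hnrnpf at -0.05 ± 0.11 and Hnrnph2 at -0.02 ± 0.09. Hnrnph1 and Hnrnph3 passed there without the doubted arrays, with the values already given.

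**Figure D3:**
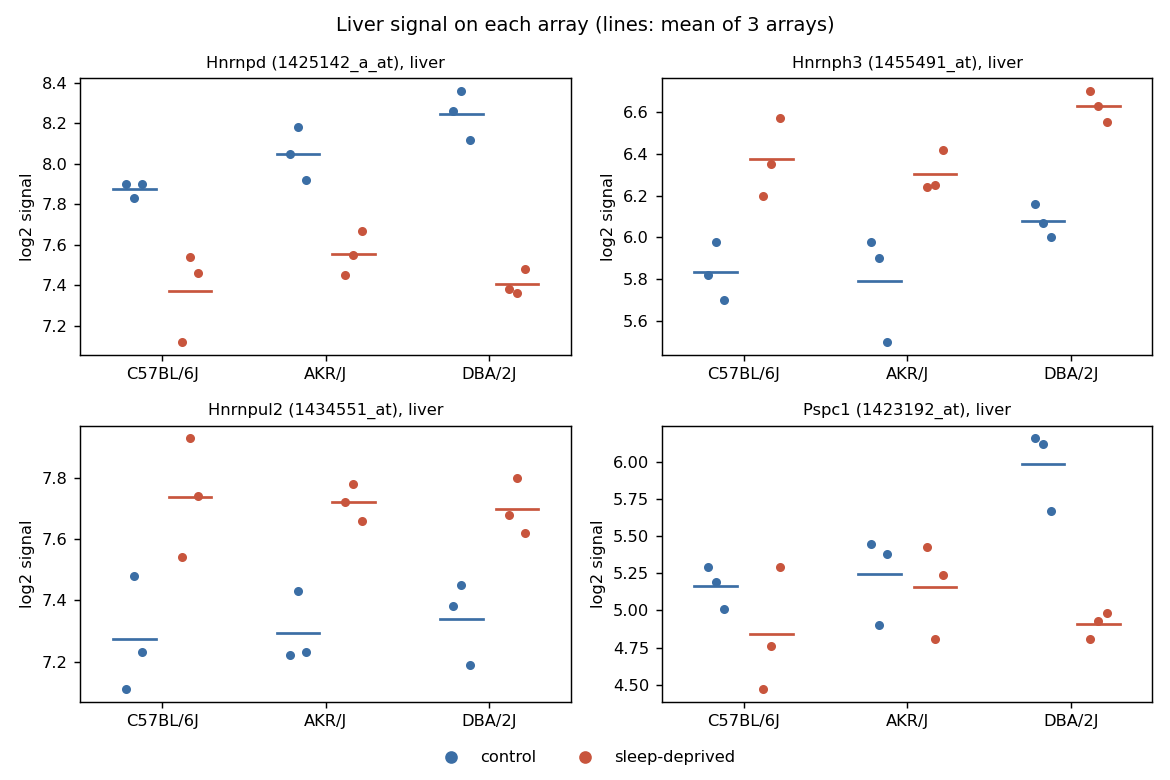
Log2 signal in liver (y axis) on each array, by strain (x axis), for Hnrnpd, Hnrnph3, Hnrnpul2 and Pspc1. Points are arrays, each a pool of 3 mice, lines are the means of 3 arrays, and the y axes differ and do not start at 0; Hnrnpd fell and Hnrnph3 and Hnrnpul2 rose with no overlap of the groups, while Pspc1 was apart only in DBA/2J.

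Hnrnpk, which binds cytosine-rich stretches of RNA and DNA, fell in liver on 3 of its 4 probe sets. Hnrnpk read 10.29, 10.22 and 10.24 on the liver control arrays of C57BL/6J, 10.31, 10.36 and 10.12 on those of AKR/J and 10.59, 10.50 and 10.13 on those of DBA/2J. Hnrnpk in sleep-deprived liver read 10.01, 9.92 and 9.99, then 9.86, 9.97 and 10.04, then 9.92, 10.18 and 9.95 in the same order of strains. The groups were apart in C57BL/6J and AKR/J and overlapped in DBA/2J. The signal fell by 20.2%, a change of -0.33 ± 0.06 (adjusted p = 0.0058), and 1423684_at and 1454692_x_at fell by 0.29 ± 0.06 (0.0074) and 0.26 ± 0.05 (0.0065) with the groups apart in every strain. The fourth, 1448176_a_at, was at -0.05 ± 0.05. In brain the 4 lay between -0.23 and -0.07, and the brightest was at -0.23 ± 0.07 (0.0963), or -0.10 ± 0.05 (0.2575) without the doubted arrays. In liver the brightest was at -0.33 ± 0.08 (0.0566) without AKR/J.

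Hnrnpl, which binds CA repeats, and Hnrnpll, known for its part in splicing of Ptprc in T cells, did not pass in either tissue. Hnrnpl was at -0.10 ± 0.05 in brain and 0.01 ± 0.08 in liver, and Hnrnpll at 0.17 ± 0.07 and 0.09 ± 0.06.

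Hnrnpm, which binds GU-rich sequence, rose in both tissues. Hnrnpm read 7.55, 7.56 and 7.56 on the brain control arrays of C57BL/6J, 7.43, 7.12 and 7.61 on those of AKR/J and 7.41, 7.32 and 7.62 on those of DBA/2J. For Hnrnpm the sleep-deprived arrays gave 7.56, 7.72 and 7.79 in C57BL/6J, 7.78, 7.91 and 7.73 in AKR/J, 7.89, 7.61 and 7.82 in DBA/2J. Only in AKR/J did the groups not overlap. The brain rise was 0.29 ± 0.07 (1.22-fold, adjusted p = 0.0379), with 0.13 for C57BL/6J, 0.42 for AKR/J and 0.32 for DBA/2J. The call was lost on leaving out any of 13 single arrays (adjusted p up to 0.0853), and without the doubted arrays it was 0.38 ± 0.07 (0.0099). Hnrnpm read 6.93, 7.04 and 7.04 on the liver control arrays of C57BL/6J, 6.61, 7.06 and 6.94 on those of AKR/J and 7.12, 6.98 and 6.98 on those of DBA/2J. With sleep deprivation, Hnrnpm was at 7.09, 7.33 and 7.31, at 7.26, 7.09 and 7.22 and at 7.27, 7.51 and 7.25 in these strains. In liver the groups were apart within every strain, and the rise was 0.29 ± 0.06 (1.22-fold, 0.0129); with AKR/J left out the adjusted p was 0.0609.

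Hnrnpr, a protein of axonal and nuclear RNA complexes, had one of the 3 lowest estimates in brain, without passing. Hnrnpr read 8.86, 8.85 and 8.85 on the brain control arrays of C57BL/6J, 8.81, 8.60 and 8.67 on those of AKR/J and 8.78, 8.69 and 8.91 on those of DBA/2J. After sleep deprivation Hnrnpr read 8.08, 8.71 and 8.75 for C57BL/6J, 8.49, 8.56 and 8.40 for AKR/J, and 8.65, 8.26 and 8.59 for DBA/2J. Within each strain the groups were apart, with the controls higher. The lowest value, 8.08, and the next lowest, 8.26, were arrays of narrow spread. The change was -0.28 ± 0.08 (adjusted p = 0.1182), and the other 4 probe sets lay between -0.53 and -0.10. Without the doubted arrays it was -0.14 ± 0.05 (0.1380), with the other 4 between -0.18 and -0.02. In liver it was at -0.11 ± 0.06 (0.3991).

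Of the hnRNP U genes, which encode large proteins that bind RNA and chromatin scaffold, Hnrnpul2 rose in liver. Hnrnpul2 read 7.11, 7.48 and 7.23 on the liver control arrays of C57BL/6J, 7.22, 7.43 and 7.23 on those of AKR/J and 7.38, 7.45 and 7.19 on those of DBA/2J. Hnrnpul2 in sleep-deprived liver read 7.54, 7.93 and 7.74, then 7.72, 7.78 and 7.66, then 7.68, 7.80 and 7.62 in the same order of strains. The lowest sleep-deprived array (7.54) was above the highest control (7.48). The rise was 0.42 ± 0.07 (1.33-fold, adjusted p = 8.315e-04), and in brain the change was 0.03 ± 0.05 (0.8514). Its other probe set, 1415765_at, was at 0.07 ± 0.06 in liver and 0.09 ± 0.05 in brain. Hnrnpul1 was at -0.25 ± 0.07 in brain (0.0699), with the controls higher in every strain and no overlap within a strain, and at -0.18 ± 0.06 in liver (0.1383). Without the doubted arrays the brain change of Hnrnpul1 was -0.13 ± 0.04 (0.1343).

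The brightest probe sets of Hnrnpu itself did not pass, at 0.07 ± 0.05 in brain and 0.02 ± 0.06 in liver. Its probe set 1434390_at rose in liver. Hnrnpu on 1434390_at read 4.92, 5.27 and 5.25 on the liver control arrays of C57BL/6J, 5.17, 4.98 and 4.89 on those of AKR/J and 4.59, 4.79 and 4.86 on those of DBA/2J. For Hnrnpu the sleep-deprived arrays gave 5.35, 5.62 and 5.41 in C57BL/6J, 5.32, 5.79 and 5.47 in AKR/J, 4.76, 5.28 and 5.36 in DBA/2J. The groups were apart in C57BL/6J and AKR/J, and the rise was 0.40 ± 0.09 (adjusted p = 0.0124). In brain the same probe set was at -0.34 ± 0.12 (0.2000).

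Sfpq, Nono and Pspc1 form dimers with each other and build paraspeckles, nuclear bodies that hold back edited RNAs and proteins. Sfpq rose in both tissues, but in brain not on its brightest probe set. Sfpq on its brightest probe set, 1436898_at, read 8.52, 7.94 and 8.47 on the brain control arrays of C57BL/6J, 8.76, 8.79 and 8.78 on those of AKR/J and 8.85, 8.75 and 8.81 on those of DBA/2J. With sleep deprivation, Sfpq was at 8.23, 8.86 and 8.78, at 8.60, 8.72 and 7.20 and at 9.04, 8.67 and 9.09 in these strains. One AKR/J array, the narrow one, lay at 7.20, while the other 17 brain arrays were at 7.94 or above. The change was -0.05 ± 0.17 (adjusted p = 0.9413), and without the doubted arrays it was 0.16 ± 0.04 (0.0710).

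Sfpq on 1423795_at read 7.36, 7.37 and 7.51 on the brain control arrays of C57BL/6J, 7.15, 6.45 and 7.01 on those of AKR/J and 7.08, 7.02 and 7.52 on those of DBA/2J. After sleep deprivation Sfpq read 7.46, 8.26 and 8.17 for C57BL/6J, 8.17, 8.18 and 7.91 for AKR/J, and 8.25, 7.88 and 8.00 for DBA/2J. The groups were apart in AKR/J and DBA/2J, and in C57BL/6J the narrow array, at 7.46, lay within the controls. This probe set rose by 0.87 ± 0.12 (1.82-fold, adjusted p = 7.126e-04). Beside it, 1423796_at rose by 0.65 ± 0.10 (0.0019), with no overlap between any control (at most 6.36) and any sleep-deprived array (at least 6.45), and 1438458_a_at by 0.42 ± 0.09 (0.0164). With AKR/J left out, the change on 1423795_at was 0.69 ± 0.14 (0.0947). The last pair of probe sets, 1438459_x_at and 1439058_at, were at 0.18 ± 0.10 and -0.01 ± 0.10; without the doubted arrays 1438459_x_at passed, at 0.31 ± 0.05 (0.0066).

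Sfpq on 1423795_at, the brightest there, read 6.70, 6.66 and 6.99 on the liver control arrays of C57BL/6J, 6.48, 6.81 and 6.40 on those of AKR/J and 6.27, 6.81 and 6.44 on those of DBA/2J. Sfpq in sleep-deprived liver read 7.32, 7.68 and 7.97, then 6.90, 7.06 and 7.15, then 6.88, 7.16 and 7.08 in the same order of strains. Within every strain the groups were apart, with the largest change in C57BL/6J (0.87) and 0.47 and 0.53 in AKR/J and DBA/2J. The rise was 0.63 ± 0.09 (1.54-fold, adjusted p = 4.823e-04). Also 1438458_a_at rose, by 0.58 ± 0.10 (0.0019), and 1438459_x_at, by 0.34 ± 0.07 (0.0108), while 1423796_at was at 0.30 ± 0.09 (0.0622), or 0.33 ± 0.09 (0.0459) without the doubted array. Probe set 1439058_at was at -0.01 in brain and 0.00 in liver, each with a standard error of at most 0.10.

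**Figure D4:**
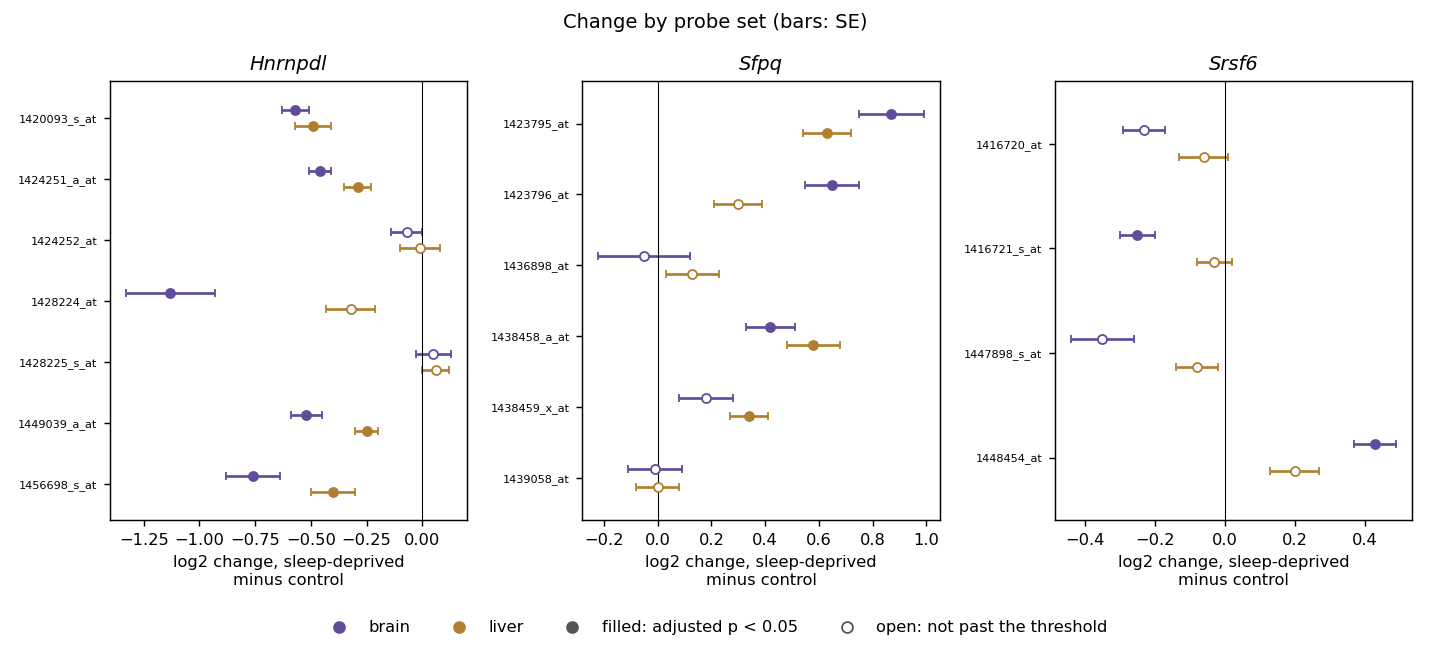
Log2 change after sleep deprivation (x axis, sleep-deprived minus control, averaged over 3 strains) of every probe set (y axis) of Hnrnpdl, Sfpq and Srsf6 in brain and liver. Points are limma estimates from 9 against 9 arrays, bars are standard errors, and filled points have an adjusted p under 0.05: in brain 5 of 7 Hnrnpdl probe sets fell, 3 of 6 Sfpq probe sets rose, and 2 Srsf6 probe sets moved in opposite directions.

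Pspc1 fell in liver, with the largest estimate in DBA/2J. Pspc1 read 5.29, 5.19 and 5.01 on the liver control arrays of C57BL/6J, 5.45, 4.90 and 5.38 on those of AKR/J and 6.16, 6.12 and 5.67 on those of DBA/2J. For Pspc1 the sleep-deprived arrays gave 4.47, 4.76 and 5.29 in C57BL/6J, 5.43, 4.81 and 5.24 in AKR/J, 4.81, 4.93 and 4.98 in DBA/2J. In DBA/2J every control was above every sleep-deprived array, and in the other strains the groups overlapped. The signal fell by 29.0%, a mean change of -0.49 ± 0.11 (adjusted p = 0.0167), made of -0.32 for C57BL/6J (0.7705), -0.08 for AKR/J (0.9546) and -1.08 for DBA/2J (0.0137). The interaction did not pass (adjusted p = 0.5536). The DBA/2J controls were the highest group, at 5.99 ± 0.27 (SD, n = 3). Its other probe set, 1423193_at, had a low mean liver signal (3.19) and was at 0.02 ± 0.05. In brain 1423192_at was at -0.08 ± 0.08. Nono was at 0.01 ± 0.04 in brain and 0.07 ± 0.05 in liver, and none of its 4 probe sets passed.

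Acin1 encodes acinus, which joins Rnps1 and Sap18 in a complex at exon junctions and is cleaved in apoptosis. Acin1 on 1421197_a_at read 7.88, 7.93 and 7.77 on the brain control arrays of C57BL/6J, 8.02, 7.96 and 8.07 on those of AKR/J and 7.90, 7.92 and 8.11 on those of DBA/2J. With sleep deprivation, Acin1 was at 7.97, 8.14 and 8.19, at 8.38, 8.45 and 8.06 and at 8.35, 8.09 and 8.35 in these strains. Only in C57BL/6J were the groups apart. The rise was 0.27 ± 0.06 (1.20-fold, adjusted p = 0.0408), and leaving out any of 14 single arrays ended the call (adjusted p up to 0.0914), while without the doubted arrays it was 0.39 ± 0.04 (3.175e-04). The other probe set, 1416568_a_at, rose in brain by 0.42 ± 0.09 (0.0285) with the groups apart in every strain, a call ended by leaving out any of 10 single arrays.

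In liver, 1416568_a_at was the representative probe set. Acin1 read 6.90, 6.97 and 6.96 on the liver control arrays of C57BL/6J, 6.99, 7.00 and 6.85 on those of AKR/J and 6.91, 6.84 and 6.72 on those of DBA/2J. After sleep deprivation Acin1 read 6.96, 7.18 and 7.16 for C57BL/6J, 7.55, 7.03 and 7.00 for AKR/J, and 7.19, 7.21 and 7.22 for DBA/2J. The groups were apart in DBA/2J and, by less than the rounding of the nearest arrays (both 7.00), in AKR/J. In C57BL/6J they overlapped. It rose by 0.26 ± 0.07 (1.20-fold, adjusted p = 0.0345), a call ended by leaving out any of 11 single arrays (adjusted p up to 0.0727), and 1421197_a_at was at 0.19 ± 0.07 (0.1616).

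Across tissues, by the brightest probe set, 4 genes were called in both, of 14 called in either. Each had the same direction (Hnrnpc, Hnrnpm and Acin1 higher, Hnrnpdl lower), and none was called in opposite directions. Sfpq is not among them, because its brightest brain probe set was not called, although 1423795_at and 1438458_a_at rose in both tissues. The change had the same sign in brain and liver for 24 of the 33 genes. Over the 33 genes it correlated with r = 0.56 (Spearman's rho 0.62), a description across genes of arrays that came from different RNA but the same strains and platform. These counts and correlations were not computed over all genes, so the likeness of the tissues is not shown to be particular to the 33. For 16 genes no probe set was called in either tissue.

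The difference between the tissues was tested in a fit over all 36 arrays. By the brightest brain probe set, 3 of the 33 genes differed (9.09%), against 2.04% of all genes. For Hnrnpd the estimates were -0.13 in brain and -0.61 in liver, a difference (liver minus brain) of -0.49 ± 0.08 (limma, adjusted p = 0.0012). For Hnrnpul2 they were 0.03 and 0.42, a difference of 0.38 ± 0.08 (0.0078), and for Hnrnph3 0.11 and 0.54, a difference of 0.43 ± 0.10 (0.0185). With AKR/J left out, 1 of the 33 differed. Probe set 1434390_at of Hnrnpu and 1434512_x_at of Srsf3, which are not the brightest, also differed, by 0.75 ± 0.15 (0.0078) and -0.39 ± 0.09 (0.0250). The fall of Hnrnpdl on 1424251_a_at, larger by estimate in brain, was not shown to differ (difference 0.17 ± 0.08, adjusted p = 0.4002).

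Within single strains fewer genes passed. In brain, 0 of the 33 passed in C57BL/6J (0.0550% of all genes), 2 in AKR/J (0.423%; Hnrnpc and Hnrnpdl) and 0 in DBA/2J (0.148%). At an unadjusted p under 0.05 limma gave 6, 13 and 7, against 5.16%, 7.63% and 7.93% of all genes. The AKR/J count was 1 without any one of its controls 1, 2 and 3 or its sleep-deprived arrays 1 and 2, and it was 5 without the doubted arrays; the DBA/2J count was 1 without AKR/J sleep-deprived 3. The AKR/J brain pools also differed in pituitary RNA, in that the mean of 6 pituitary markers was 4.83 to 5.07 on the controls and 6.41 to 7.49 on the sleep-deprived arrays, and its part in the AKR/J results was not tested.

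In liver, 3 passed in C57BL/6J (0.803% of all genes; Sfpq, Hnrnpd and Hnrnph3), 3 in AKR/J (1.03%; Hnrnpc, Hnrnpd and Hnrnph1) and 4 in DBA/2J (0.846%; Hnrnpd, Hnrnpc, Pspc1 and Hnrnph3). The C57BL/6J count was 0 without control 1 or sleep-deprived 3 and 1 without control 2 or 3. In AKR/J it was 1 without control 2 or sleep-deprived 2. In DBA/2J it was 2 without control 1 or sleep-deprived 2 and 1 without sleep-deprived 1. Limma's interaction of strain and sleep deprivation was called for 0 of the 33 genes in brain (0% of all genes) and 0 in liver (0.0330%); at an unadjusted p under 0.05 it was 0 and 4, against 1.76% and 7.34% of all genes. An effect called in 1 strain and not in another is thus not shown to differ between them for any of the 33.

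Some of the genes differed between strains without sleep deprivation. Among controls, 4 of the 33 genes differed in liver (12.1%), against 12.0% of all genes, and 0 in brain, against 3.11%; at an unadjusted p under 0.05 limma gave 1 in brain, against 11.1% of all genes. The 4 in liver were Hnrnpc, lower by 0.43 ± 0.09 in AKR/J than in C57BL/6J (adjusted p = 0.0082), Hnrnph2, lower by 0.43 ± 0.10 in the same comparison (0.0096), Srsf2, and Pspc1, higher by 0.82 ± 0.19 in DBA/2J than in C57BL/6J (0.0145). The liver count was 2 without AKR/J control 2, C57BL/6J control 2 or 3, or DBA/2J control 1 or 2.

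The largest strain difference of the family was on Srsf2 probe set 1452439_s_at, which is not its brightest. Srsf2 on 1452439_s_at read 7.29, 6.85 and 7.22 on the brain control arrays of C57BL/6J, 8.06, 7.99 and 8.15 on those of AKR/J and 7.99, 8.03 and 7.78 on those of DBA/2J. Srsf2 in sleep-deprived brain read 7.00, 7.25 and 7.36, then 8.01, 7.99 and 7.88, then 7.99, 7.68 and 8.13 in the same order of strains. All 6 C57BL/6J arrays were below all 12 arrays of the other strains. The controls of AKR/J were higher than those of C57BL/6J by 0.95 ± 0.13 (adjusted p = 4.254e-04) and those of DBA/2J by 0.81 ± 0.13 (0.0017). In liver the same differences were 1.00 ± 0.13 (5.119e-05) and 0.70 ± 0.13 (0.0020). After sleep deprivation this probe set was at -0.01 ± 0.08 from its controls in brain and -0.14 ± 0.07 in liver, neither past the threshold. The brightest Srsf2 probe set, 1427504_s_at, differed less between AKR/J and C57BL/6J controls in liver, by 0.42 ± 0.11 (0.0274), and did not pass in brain.

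**Figure D5:**
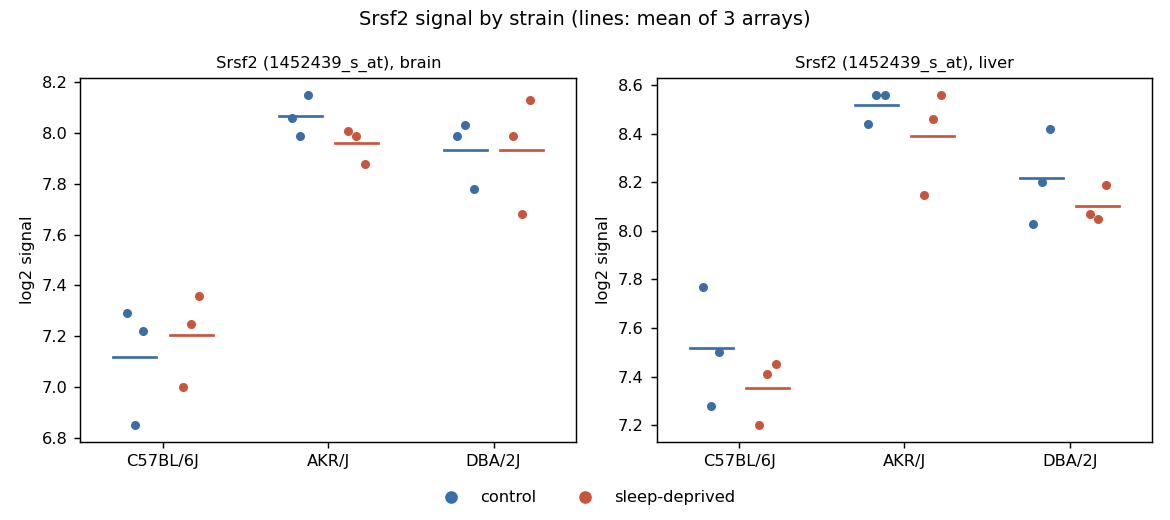
Log2 signal of Srsf2 probe set 1452439_s_at (y axis) on each array, by strain (x axis), in brain at left and liver at right. Points are arrays, each a pool of 3 mice, and lines are the means of 3 arrays; the C57BL/6J arrays, control and sleep-deprived, lie below all arrays of AKR/J and DBA/2J in both panels, and levels are not compared between tissues.

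Other genes of the splicing machinery were counted from 5 lists. Of all genes, 0.951% rose and 1.60% fell in brain, and 2.97% rose and 1.91% fell in liver. In brain 0 of the 28 SR-related coactivators measured rose and 1 fell, Ddx46, a helicase of the early spliceosome (-0.24 ± 0.06, adjusted p = 0.0327). Of 12 kinases and importers of SR proteins 1 rose, Clk1, which phosphorylates SR proteins (0.25 ± 0.06, 0.0379). None of 16 hnRNP-like proteins, 28 tissue-restricted regulators or 41 core spliceosome genes passed in brain. In liver the coactivators gave 2 rises (Pnn, 0.36 ± 0.07, 0.0060; Rsrp1, 0.35 ± 0.06, 9.307e-04) and 2 falls (Ddx46, -0.33 ± 0.07, 0.0122; Thrap3, -0.26 ± 0.06, 0.0234). Among the kinases 1 rose, Prpf4b (0.51 ± 0.09, 0.0017). The hnRNP-like list gave 1 rise, Tardbp (0.30 ± 0.08, 0.0312), and 1 fall, Ptbp1 (-0.19 ± 0.04, 0.0183). The tissue-restricted regulator Mbnl2 rose (0.32 ± 0.07, 0.0160), and so did 2 of the 41 core genes, Prpf3 (0.31 ± 0.06, 0.0047) and Dhx15 (0.22 ± 0.05, 0.0112).

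Few markers of cell types passed. The shares of all genes were 0.951% for rises and 1.60% for falls in brain, and 2.97% and 1.91% in liver. In brain 1 of 6 oligodendrocyte markers fell (Opalin, -0.95 ± 0.05, limma, adjusted p = 4.125e-08). The mean of the 6 was 9.85 to 10.17 on the sleep-deprived arrays and 10.22 to 10.37 on the controls, without overlap. Of the markers not called, Mog, Mag and Cnp were at -0.33, -0.18 and -0.15, while Mbp and Mobp were at 0.00 and 0.02. None of the 10 neuron, 7 astrocyte, 7 microglia or 5 endothelium markers passed. In liver 2 of 5 endothelium markers rose (Pecam1 and Tek), with a mean over the 5 of 4.62 to 5.19 on the 9 controls against 4.99 to 5.31 after sleep deprivation, 1 of 8 hepatocyte markers rose (Tat, 0.83 ± 0.11, 2.303e-04), and 1 of 4 lymphocyte markers and 1 of 10 neuron markers fell (Cd79a and Syt1). The part of these in the changes of the 33 genes was not tested.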

How the data were processed

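Whole brain and liver RNA of 3 strains, control or sleep-deprived, was measured on 36 Affymetrix arrays, 3 per group, each a pool of 3 mice. Per the submitters' processing notes, the deposited values are log2 signals from RMA (version not given in the sources used here). Values lay between 2.12 and 14.91, with none missing, and brain and liver were fitted apart and no level was compared between them. The 64 control probes of the 45101 on the array were dropped. Gene symbols came from the platform annotation: 34945 tested probe sets had 1 symbol, 932 several and 9160 none. An array gives no count depth; the number of arrays limits the precision.

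Group means were fitted in limma 3.58.1 (R 4.3.3) with empirical Bayes moderation over the 18 arrays of a tissue (12 residual degrees of freedom), and p-values were Benjamini-Hochberg adjusted over 45037 probe sets, with a threshold of 0.05. The change over strains, the change in each strain, the interaction and the strain differences among controls were tested, and liver minus brain was tested over all 36 arrays. The procedure was tested on simulated data of known changes. Array-by-array values were given for every gene with a called probe set on the change over strains and for the 3 largest rises and falls by estimate of each tissue; of the other splicing lists all called genes were named, up to 4 per list and tissue. The members and lists were chosen with earlier results of these data known. The Srsf6, Srsf2 and Hnrnpab details were singled out after their values were seen. Alternatives were the replicate block, leaving out each array, the AKR/J controls of disagreeing labels or AKR/J, median centring, quantile normalisation, a filter on dim probe sets (log2 over 6 on at least 3 arrays), the mean of a gene's probe sets, no _s_at or _x_at probe sets, an intensity trend and array weights. Leaving out doubted arrays was added after the data were seen. RefSeq promoters (GRCm38.p6) were searched for exact motif matches on both strands over 250 bases upstream of each start.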

Additional observations from a re-analysis of the deposited data

Results flagged for a closer look

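For 5 probe sets the change after sleep deprivation differed between liver and brain in limma's test of the difference over 36 arrays (Benjamini-Hochberg adjusted over all probe sets). Hnrnpd on 1425142_a_at differed by -0.49 ± 0.08 (adjusted p = 0.0012), with -0.13 in brain and -0.61 in liver. Hnrnpul2 on 1434551_at differed by 0.38 ± 0.08 (0.0078), with 0.03 and 0.42. Hnrnph3 on 1455491_at differed by 0.43 ± 0.10 (0.0185), with 0.11 and 0.54. Hnrnpu on 1434390_at differed by 0.75 ± 0.15 (0.0078), with -0.34 in brain, not past the threshold, and 0.40 in liver. Srsf3 on 1434512_x_at differed by -0.39 ± 0.09 (0.0250), with 0.18 in brain and -0.20 in liver, neither past the threshold alone.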

How the results depend on the processing

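Of 459 comparisons of a count with its value under an alternative, 388 stayed within 1.5 times, 48 were lower and 23 higher; except where stated, the cause was not tested. The share of all genes is given in brackets. The genes that rose in brain (4, 0.951%) were 2 without the AKR/J controls of disagreeing labels (0.324%), 1 with AKR/J left out (0.176%) and 2 with median centring (0.698%). They were 10 with array weights (5.73%), 8 without the narrow arrays (3.49%) and 9 without all doubted arrays (3.69%). Those that fell in brain (2, 1.60%) were 1, 1 and 1 under the first 3 of these settings (0.621%, 0.0989% and 0.896%). They were 4 with quantile normalisation (2.59%), 4 with the dim filter, which tests fewer genes (4.95%), and 6 with array weights (5.73%). For the counts within strains, between strains and between tissues, the share of all genes under each alternative was not computed. Within strains in brain, C57BL/6J (0) gave 4 with array weights and 1 without the narrow arrays. AKR/J (2) gave 0 without the controls of disagreeing labels, 0 with the mean of probe sets, 7 with array weights and 5 without doubted arrays. DBA/2J (0) gave 4 with array weights and 2 with quantile normalisation, the dim filter, the intensity trend, and without narrow or doubted arrays. Brain control strain differences (0) were 1 with quantile normalisation, 1 with the mean of probe sets, 2 with array weights and 3 without narrow arrays. In liver, falls (4, 1.91%) were 2 with AKR/J left out (0.594%). AKR/J (3) gave 1 without the controls of disagreeing labels and 5 with the dim filter. DBA/2J (4) gave 2 without the doubted array. Control strain differences (4) were 2, 1 and 2 without the disagreeing controls, AKR/J or the doubted array. Liver minus brain (3) was 1 with AKR/J left out, 1 with the mean of probe sets and 5 with array weights. Leaving out single arrays gave 2 to 5 brain rises, 2 to 2 brain falls, 7 to 8 liver rises, 4 to 5 liver falls and 3 to 4 tissue differences. For C57BL/6J, AKR/J and DBA/2J it gave 0 to 0, 1 to 2 and 0 to 1 in brain, and 0 to 3, 1 to 4 and 1 to 5 in liver. Interactions stayed at 0 to 0 in both tissues, and control strain differences were 0 to 0 in brain and 2 to 5 in liver. Srsf6 in brain reversed to -0.10 (limma, adjusted p = 0.3590) with the mean of its probe sets, which includes 3 of negative change. With the replicate block, 3 genes rose in brain, the call of Acin1 being lost, 2 fell, and 8 and 4 did so in liver; 610 and 1578 probe sets were called in all, against 778 and 1622. Same-numbered arrays correlated at a median of 0.11 in brain (-0.56 to 0.61) and 0 in liver (-0.16 to 0.22), against 0.08 and -0.01 for other numbers, and 7 and 9 of 18 arrays correlated best with their own number. Since not every pair passed 0.1, the numbers were not taken to pair the arrays.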
